A study of Mus musculus with 14 samples.

Results

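The interleukin genes and the genes of their receptors were examined in tumours of control mice (7 arrays) and of mice labelled deficient in Hif2alpha (7 arrays). This factor, HIF-2α, the product of Epas1, is a transcription factor that is stabilised when oxygen is low. Members were all array probesets whose single gene symbol in the platform annotation starts with Il and a digit, and each gene was represented by its probeset with the highest mean over the 14 arrays. This gave 66 genes, from 93 probesets, of 12393 named genes on the array. Tumour RNA was hybridised to Affymetrix mouse expression arrays, and the deposited values are log2 levels per probeset. All 14 samples were labelled with a mixed background of 129 SvJ and C57Bl6, and the second group is named both deficient and a knockdown in the labels. The organ, the age of the mice, what drove the tumours, and the allele or Cre behind the deficiency are not stated in what was used here. The comparison asks which interleukin and receptor transcripts differed between control tumours and those labelled deficient.

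Interleukins are secreted signals between leukocytes, and between leukocytes and epithelium, endothelium or stroma. Ligands of the IL-1 family act through receptors with a Toll-like signalling domain and the adaptor MYD88. Most others act through paired receptor chains that carry JAK kinases and activate STAT factors, and receptors for different ligands often share a chain, such as gp130 (Il6st) for the IL-6 family. IL-17 ligands use a separate receptor family centred on Il17ra. IL-33 and IL-18 are held ready in epithelium, and IL-6 signalling and IL-1β are well-known parts of tumour-associated inflammation.

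Values in the whole table ran from 2.12 to 15.38, and many pile up near the lower end, where GCRMA sets the background. A probeset was tested if it read above 4 on at least 7 of the 14 arrays, and one at 4 or less on all arrays is called at the floor, where a value is only a bound. Levels of different probesets depend on their probes and were not compared with each other. The Epas1 probeset read 4.65 to 6.499 in controls, with a median of 6.13, and 4.88 to 6.38 in deficient tumours, with a median of 5.75. It differed by -0.19 (SE 0.30, limma adjusted p = 0.807), and since the deleted part is not given, this checks nothing. The alveolar surfactant gene Sftpa1 had means of 13.98 (SD 0.11) and 13.94 (SD 0.19), although no organ is labelled. Arrays correlated at 0.972 to 0.996 among controls and at 0.945 to 0.990 among deficient tumours across probesets. Each array description holds a pair of numbers of unstated meaning. The first, called the leading number here, takes 2 values among controls (control 1 and 4 share one) and 4 among deficient tumours (1 and 5, 3 and 6, 4 and 7 share one, and deficient 2 has its own). Nothing states that arrays with one leading number come from separate mice, so the p-values measure the spread between arrays and would be too small if some arrays share a mouse. The second number runs without gaps, and all of its values in the deficient group lie below all of those in controls. Anything that follows that order therefore cannot be told apart from the group.

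Of the 66 genes, 39 lay at the floor on all 14 arrays, 4 rose above 4 on 1 to 6 arrays, and 23 were tested. Among 33 ligands, counting the antagonist Il1rn, 24 were at the floor and 7 were tested, a share of 21.2%. Among 31 receptor chains, 14 were at the floor and 15 were tested, a share of 48.4%. Over all probesets other than controls, 56.1% were tested and 37.5% lay at the floor. Further probesets existed for 12 of the 23 tested genes, 19 in all. Of these 13 lay at the floor, 3 rose above 4 on 1 to 6 arrays and 3 were tested.

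The ligands at the floor included many that lymphocytes make. Of the ligands of the common gamma chain family Il2, Il4, Il9 and Il21 were at the floor, as was Il13, grouped here with them as a relative. So were the eosinophil and myeloid growth factors Il5 and Il3. The IL-12 genes Il12a and Il12b, the IL-10 family genes Il10, Il20 and Il24, and the IL-17 family genes Il17a, Il17b, Il17d and Il25 were at the floor too. So were the IL-6 family genes Il6 and Il11. In the IL-1 family, Il1a and the genes carrying the older symbols Il1f5, Il1f6, Il1f8, Il1f9 and Il1f10, which include the IL-36 ligands, were at the floor. Il4i1, which is induced by IL-4 and encodes an amino acid oxidase and not a cytokine, was also there. The highest reading of any gene at the floor was 3.92, for Il6 in control 1.

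Receptor chains at the floor were Il2ra, Il2rb, Il9r, Il13ra2 and Il21r of the common gamma chain family and its relatives, and Il5ra. Il12rb1, Il12rb2, Il10ra, Il17rb, Il17rd, Il31ra, Il1rl2, which binds IL-36, and Il1rapl2 lay there as well. A probeset at the floor does not show that a transcript is absent, since a few expressing cells in a tumour or a poor probe would read the same.

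**Figure D1:**
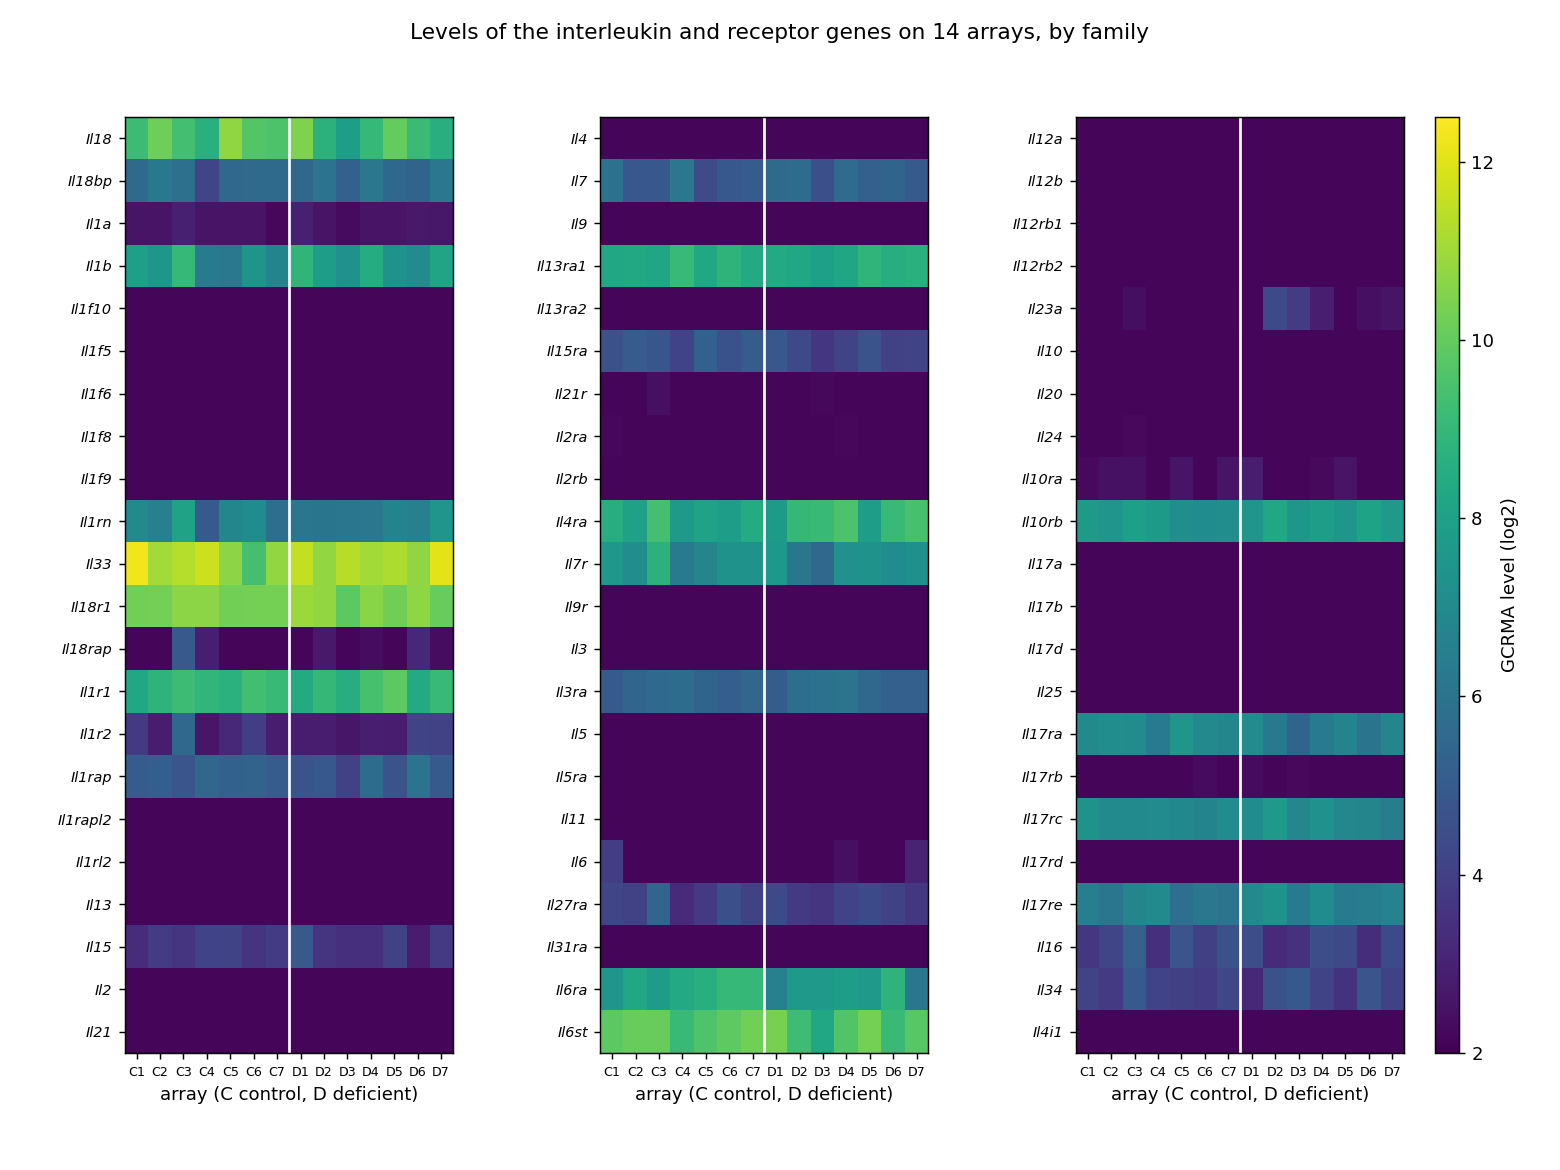
GCRMA levels (log2, colour) of the 66 interleukin and receptor genes in rows, grouped by family, on 7 control (C) and 7 deficient (D) arrays in columns. Of the 66 genes 39 stay at 4 or less on every array, and the tested genes keep their colour on both sides of the white line between groups.

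The 4 genes above 4 on few arrays were not tested. Il15, a growth factor of natural killer and memory T cells, read above 4 on 2 arrays of each group, with highest values of 4.16 in controls and 4.92 in deficient tumours. Il1r2, a decoy receptor for IL-1, reached 5.50 in control 3 and 4.17 in a deficient tumour. Il18rap, the accessory chain of the IL-18 receptor, exceeded 4 in control 3 alone, at 4.95. Il23a, which encodes the p19 subunit of IL-23, lay between 2.17 and 2.41 among controls and from 2.18 to 4.32 in deficient tumours. Its value was above the highest control in 5 of 7 deficient tumours, all but deficient 1 and 5, but 1 array alone passed 4, and order below that level is not interpretable.

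No tested gene of the family passed the test between the groups. After adjustment over all 12701 tested probesets, 0 of 23 passed a threshold of 0.05 (limma, lowest adjusted p = 0.254), where 0.0394% of all tested probesets did. At an unadjusted p under 0.05 there were 3 of 23, or 13%, against 14.7% of all tested probesets, so the family's share lay near the background. All 3 (Il6ra, Il17ra and Il15ra) were lower in deficient tumours, a direction taken by 6.57% of all tested probesets at that p. None was higher, against 8.09%. The ranges of the groups overlapped for all 23, where 0.496% of all tested probesets had ranges that did not. Of the 23 genes 11 read higher and 12 lower, with a median difference of -0.03 beside 0.02 over all tested probesets.

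The size of difference that these arrays leave possible varied among the members. Differences ran from -0.89 for Il6ra to 0.56 for Il1b, and the median standard error was 0.263 beside 0.177 over all tested probesets. The 95% intervals lay wholly between -1 and 1 for 17 genes. Half-widths ran from 0.347 to 0.902, the widest being that of Il1b, and for the other 6 genes an interval reached past 1 log2 unit in 1 direction.

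**Figure D2:**
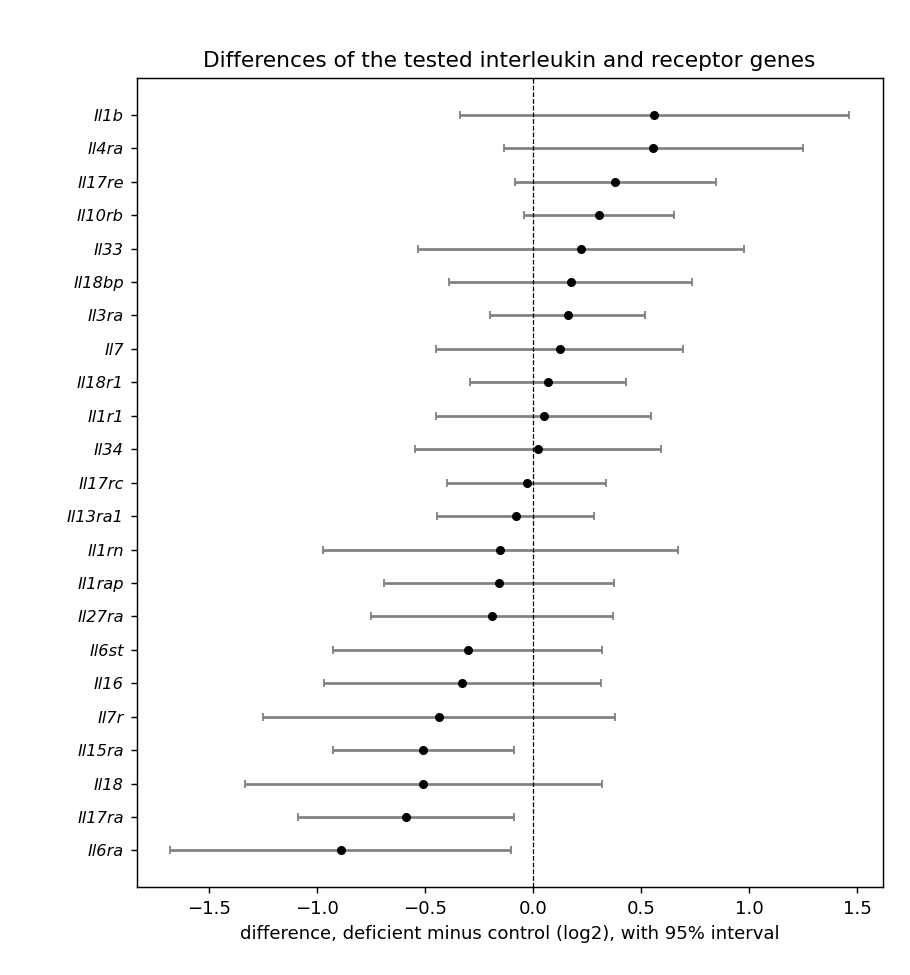
Difference between groups (deficient minus control, log2, horizontal axis) of the 23 tested genes, ordered by size, with the 95% interval of the limma fit as bars. The intervals of Il6ra, Il17ra and Il15ra lie below 0 and those of the other 20 genes include 0, and none of the 23 passed after adjustment over all probesets.

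The 3 tested receptors of the IL-6 family (Il6ra, Il6st and Il27ra) read lower in deficient tumours without passing the test, and the sign of Il6st and Il27ra turned when some arrays were left out. Il31ra was at the floor. Il6ra, the ligand-binding chain of the IL-6 receptor, ran from 7.49 to 9.02 in controls with a median of 8.41, and from 6.13 to 8.83 in deficient tumours with a median of 7.63. The ranges overlapped, with deficient 7 at 6.13 and deficient 1 at 6.58 the lowest, while deficient 6 at 8.83 was exceeded by 2 controls. Its difference was -0.89 (SE 0.37, 95% interval -1.68 to -0.10, 1.85-fold lower), with an unadjusted exact permutation p of 0.0460 and an adjusted limma p of 0.288. Below the control mean lay 6 of 7 deficient tumours. The difference was -1.20 without deficient 3 and 6 together, and the unadjusted limma p was above 0.05 without control 6, control 7, deficient 1 or deficient 7. The second Il6ra probeset was at the floor.

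Il6st encodes gp130, the signalling chain that most receptors of the family share. It ran from 9.09 to 10.25 in controls (median 9.89) and from 8.25 to 10.36 in deficient tumours (median 9.67). Deficient 3 was the lowest of all arrays and deficient 1 and 5 the highest, so the deficient tumours spanned the control range on both sides. The difference of -0.30 (SE 0.29, adjusted p = 0.667) was smaller than the spread between arrays, and it was -0.09 without deficient 3 and 0.04 without deficient 3 and 6. Il27ra, the IL-27 receptor chain, read above 4 on 9 arrays and differed by -0.19 (SE 0.26). It was 0.02 without control 3, whose 5.42 was the highest value of this gene.

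Because HIF factors bind short sites with the core ACGTG or GCGTG, the region before the start is shown for Il6ra and Il15ra, 2 of the 3 genes with an unadjusted p under 0.05. That of Il17ra is not shown. The sequences are 250 bases long, end just before the most upstream start in RefSeq, are from build GRCm38.p6 and are written 5′ to 3′ on the gene's strand, with matches to either core on either strand in capitals. Il6ra lies on the minus strand at chr3:89913197-89913446 and Il15ra on the plus strand at chr2:11705043-11705292.
Il6ra: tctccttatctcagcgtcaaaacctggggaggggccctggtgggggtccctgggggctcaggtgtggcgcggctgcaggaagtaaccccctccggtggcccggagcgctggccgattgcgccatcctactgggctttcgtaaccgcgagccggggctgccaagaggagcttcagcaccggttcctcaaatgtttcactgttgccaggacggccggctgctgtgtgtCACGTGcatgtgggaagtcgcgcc
Il15ra: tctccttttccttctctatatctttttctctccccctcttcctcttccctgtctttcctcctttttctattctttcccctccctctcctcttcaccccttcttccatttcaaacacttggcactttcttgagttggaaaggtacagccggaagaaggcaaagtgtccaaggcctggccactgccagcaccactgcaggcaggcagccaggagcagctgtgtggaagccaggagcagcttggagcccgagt

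The Il6ra window holds ACGTG on both strands in 1 overlapping run that begins 24 bases before the start. The Il15ra window holds neither core. Of the 18 tested members in the RefSeq promoter table, 6 had a match (33.3%), beside 10442 of 27025 genes in that table (38.6%). A match in these letters is a description and no evidence of binding.

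The receptors of the IL-17 family differed in sign. Il17ra, the chain that the receptors of this family have in common, ran from 6.36 to 7.49 in controls (median 6.97) and from 5.40 to 7.08 in deficient tumours (median 6.39). Deficient 3 lay lowest of all arrays and 6 of 7 deficient tumours were below the control mean, but deficient 1 lay above 5 of the controls. The difference was -0.59 (SE 0.23, 95% interval -1.09 to -0.09, exact permutation p = 0.0303, limma adjusted p = 0.269). It was -0.43 without deficient 3 and -0.33 without deficient 3 and 6. The unadjusted limma p was above 0.05 without control 5, and also without deficient 3 and 6 together. The second Il17ra probeset was at the floor.

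Il17rc, which pairs with Il17ra to bind IL-17A and IL-17F, lay between 6.72 and 7.40 among controls and from 6.40 to 7.68 in deficient tumours. Its difference of -0.03 (SE 0.17) changed sign with the scaling of the arrays, to 0.05 with each array centred on its median. Il17re, the receptor of epithelial IL-17C, ran from 5.84 to 7.04 in controls (median 6.14) and from 6.29 to 7.35 in deficient tumours (median 6.66). It differed by 0.38 (SE 0.22, 95% interval -0.09 to 0.85, adjusted p = 0.435), with 3 controls above the lowest deficient tumour. Its probeset is of a kind that can match transcripts of more than 1 gene, and the other Il17re probeset lay at the floor. The IL-17 family ligands among the members (Il17a, Il17b, Il17d and Il25) were all at the floor, as given above. Il17c and Il17f were not among the members, so nothing was read for them.

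Among receptors of the common gamma chain family and their partners, Il15ra and Il4ra read in opposite directions. Il15ra, which presents IL-15 to neighbouring cells, ran from 4.13 to 5.20 in controls (median 4.82) and from 3.68 to 4.84 in deficient tumours (median 4.16). All but deficient 3 read above 4, and 6 of 7 deficient tumours were below the control mean, with deficient 1 and 5 the highest of that group. The difference was -0.51 (SE 0.20, 95% interval -0.92 to -0.09, exact permutation p = 0.0332, limma adjusted p = 0.254). It was -0.35 without deficient 3 and 6, where the unadjusted limma p was above 0.05. The second Il15ra probeset read above 4 on 3 arrays and was not tested.

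Il4ra, the chain shared by the receptors of IL-4 and IL-13, ran from 7.62 to 9.35 in controls (median 8.06) and from 7.74 to 9.53 in deficient tumours (median 9.10). Deficient tumours fell into a low pair, deficient 1 at 7.74 and deficient 5 at 7.90, and 5 tumours between 9.003 and 9.53. Control 3, at 9.35, was the only control above 9. The difference was 0.56 (SE 0.32, 95% interval -0.13 to 1.25, adjusted p = 0.441), and 0.74 without control 3 (adjusted p = 0.314). Its partner Il13ra1 lay between 8.19 and 9.06 among controls and from 7.93 to 8.87 in deficient tumours, a difference of -0.08 (SE 0.17). The other tested Il13ra1 probesets differed by -0.16, -0.09 and -0.18.

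Il7r, which is part of the receptors of IL-7 and TSLP and marks T cells and innate lymphoid cells, lay between 6.27 and 8.74 among controls and from 5.50 to 7.60 in deficient tumours. Control 3 was the highest array and deficient 3 the lowest, and the difference of -0.43 (SE 0.38, adjusted p = 0.637) was -0.20 without either of them. The ligand Il7, a survival factor of lymphocytes, lay between 4.44 and 6.17 among controls and from 4.56 to 5.70 in deficient tumours. Its 2 highest arrays were control 4 and control 1, which share a leading number, and it differed by 0.12 (SE 0.27).

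In the IL-1 family, ligands and antagonists varied widely within groups. Il1b, the inflammatory cytokine IL-1β of myeloid cells, ran from 6.19 to 9.05 in controls (median 7.44) and from 7.06 to 8.88 in deficient tumours (median 7.90). The highest value was in control 3 and the next in deficient 1. The difference was 0.56 (SE 0.42, 95% interval -0.34 to 1.46, adjusted p = 0.575), 0.85 without control 3 (adjusted p = 0.322) and 0.37 without control 5. Il1rn, which encodes the antagonist of the IL-1 receptor, ran from 4.98 in control 4 to 8.04 in control 3, and from 6.07 to 7.46 in deficient tumours. It differed by -0.15 (SE 0.39), and by 0.09 without control 3.

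Il33 encodes IL-33, an alarmin that is kept in the nucleus of epithelial and endothelial cells. It ran from 9.42 in control 6 to 12.27 in control 1 (median 11.04), and from 10.77 to 12.07 in deficient tumours (median 11.20). Deficient tumours all lay within the control range, and the difference was 0.22 (SE 0.35, 95% interval -0.53 to 0.98, adjusted p = 0.807). Il18, an inflammasome-dependent cytokine, ran from 8.66 to 10.76 in controls (median 9.58) and from 7.86 to 10.46 in deficient tumours (median 9.02). Deficient 1 and 5 were the highest of their group and deficient 3 the lowest, and the difference of -0.51 (SE 0.39, adjusted p = 0.579) was within the spread. It was -0.30 without deficient 3 and -0.32 without control 5. Il18bp, the soluble inhibitor of IL-18, lay between 4.21 in control 4 and 6.23 among controls and from 5.22 to 6.18 in deficient tumours. It differed by 0.17 (SE 0.26), and by -0.05 without control 4.

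IL-1 family receptors gave narrower intervals around 0. Il18r1, the binding chain of the IL-18 receptor, ran from 10.25 to 10.68 in controls (median 10.30) and from 9.85 to 10.91 in deficient tumours (median 10.64). Deficient tumours were spread to both sides of the controls, with a difference of 0.07 (SE 0.17, 95% interval -0.29 to 0.43). Il1r1, the signalling receptor of IL-1, ran from 8.29 to 9.30 in controls (median 8.93) and from 8.41 to 9.84 in deficient tumours (median 8.98), and differed by 0.05 (SE 0.23, 95% interval -0.45 to 0.55). Il1rap, the accessory chain for IL-1, IL-33 and IL-36 receptors, lay between 4.76 and 5.47 among controls and from 4.04 to 5.99 in deficient tumours, and differed by -0.16 (SE 0.25).

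The remaining tested genes also missed the threshold. Il10rb, a chain shared by receptors of IL-10, IL-22 and the interferon lambdas, ran from 7.11 to 7.93 in controls (median 7.495) and from 7.48 to 8.29 in deficient tumours (median 7.68). All 7 deficient tumours lay above the control mean, deficient 1 by only 0.0017, and 4 of the 7 controls lay above the lowest deficient tumour. The difference was 0.31 (SE 0.16, 95% interval -0.04 to 0.65, adjusted p = 0.400). Il3ra, the IL-3 receptor chain of myeloid cells, lay between 4.98 and 5.73 among controls and from 5.11 to 6.05 in deficient tumours and differed by 0.16 (SE 0.17). Il34, a ligand of the receptor CSF1R, and Il16, a chemoattractant for CD4 cells, read above 4 on 9 and 8 of the 14 arrays. Il34 differed by 0.02 (SE 0.27) and Il16 by -0.33 (SE 0.30). The difference of Il16 was -0.16 without control 3 and -0.21 without deficient 2.

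**Figure D3:**
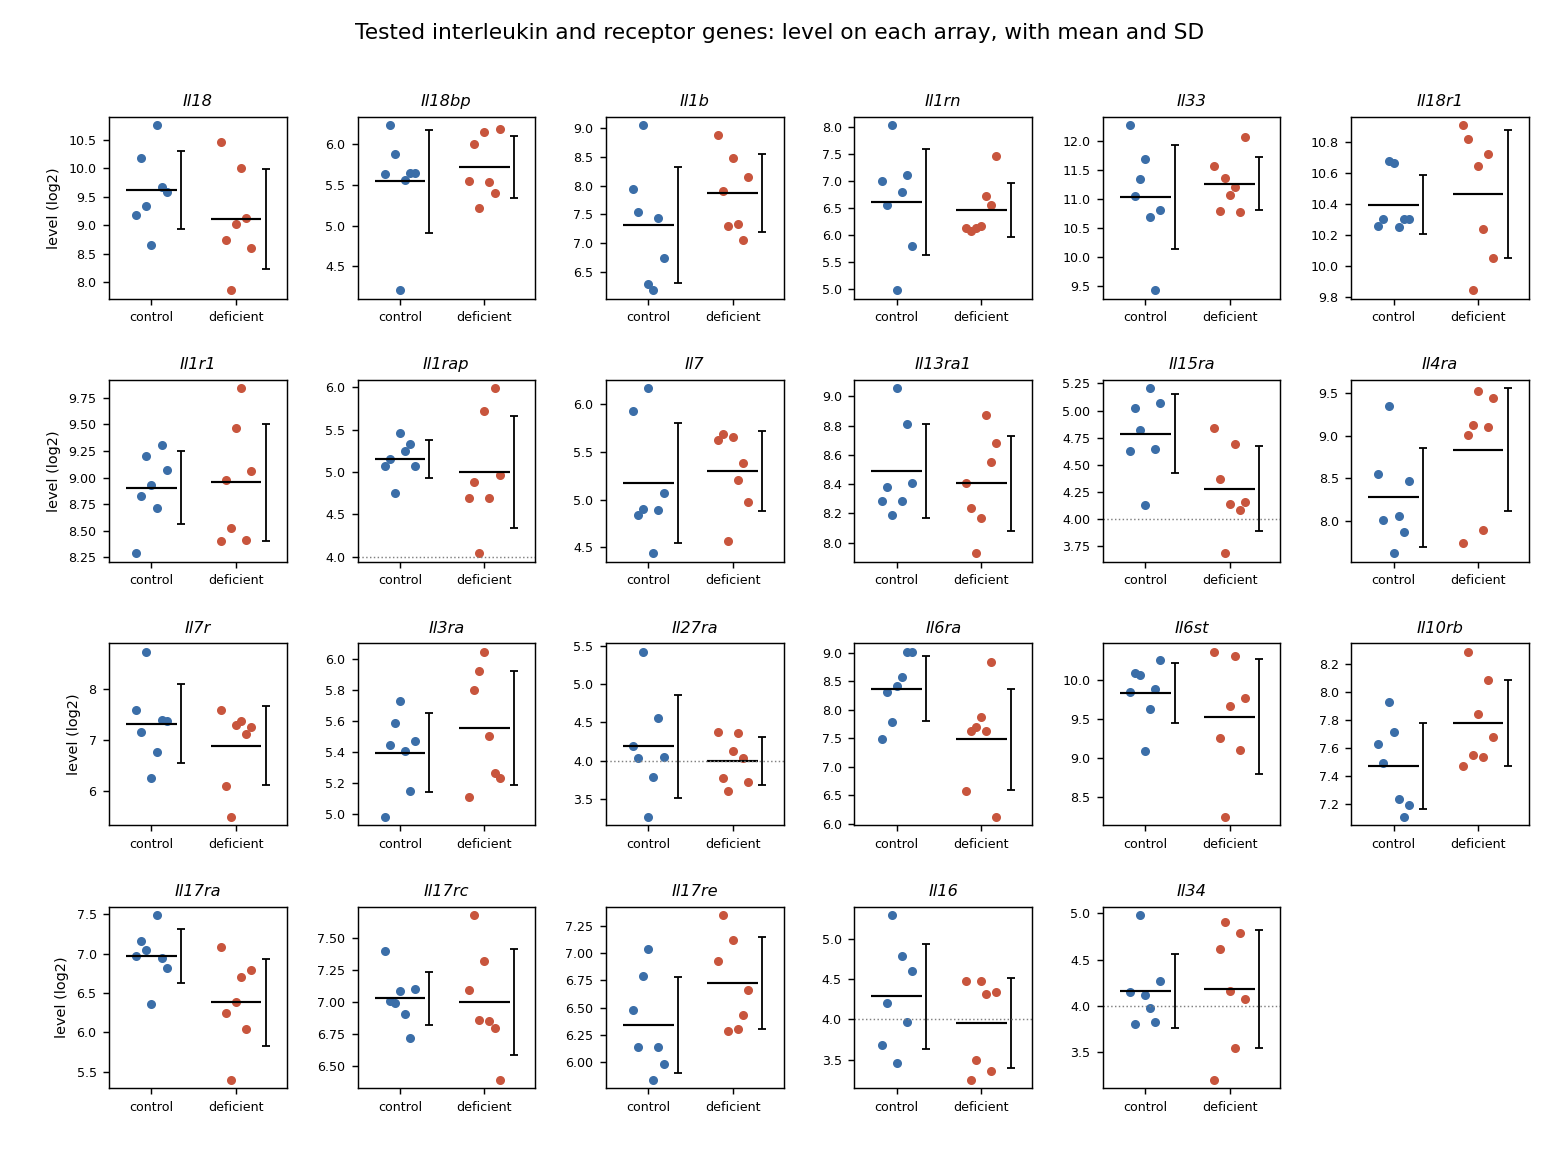
Level (log2, vertical axis) of the 23 tested genes on each array, with control points in blue and deficient points in red. Horizontal lines are group means, bars beside them the SD over 7 arrays, and the dotted line marks 4; each panel has its own scale. The points of the groups overlap in every panel, and Il4ra in deficient tumours splits into a pair near 7.8 and 5 arrays above 9.

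The calls depended on the weight given to single arrays. When limma estimated a quality weight for each array, 5 of the 23 members passed (21.7%), and so did 15% of all tested probesets. Under these weights Il15ra (-0.75, adjusted p = 0.00891) and Il17ra (-0.82, adjusted p = 0.0131) fell, while Il10rb (0.52, adjusted p = 0.0310), Il17re (0.75, adjusted p = 0.0255) and Il4ra (0.80, adjusted p = 0.0469) rose. Weights ran from 0.277 in deficient 1 to 4.15 in control 5, and deficient 3, 5 and 7 and control 3, 4 and 6 also had weights under 1. The weighting was estimated from the same values, and with equal weights these 5 genes had an adjusted p of 0.254 to 0.441. Taking the leading number as a random effect, 0 members had an unadjusted p under 0.05, beside 4.72% of all tested probesets. The lowest adjusted p of a member in that limma fit was 0.989.

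Single arrays moved several members at once. Control 3 was the highest control for 9 of the 23 genes (Il1b, Il1rn, Il4ra, Il7r, Il27ra, Il16, Il34, Il10rb and Il18r1), where it was the highest control for 13.1% of all tested probesets. It was also the only control in which Il18rap or Il1r2 exceeded 4. The summed level of 7 neutrophil markers (log2 of the summed linear levels) was 12.29 in control 3 and 9.12 to 11.73 in the other controls. That of 8 T cell markers was 8.89 against 7.23 to 8.52. Control 3 was also the highest control in the summed B cell (8.87) and mast cell and basophil (11.80) markers. It was the lowest control in the summed club (14.57) and ciliated (9.42) markers. Because linear levels are summed, each sum mostly follows the brightest markers of its list. In the mast cell and basophil list the brightest was Hdc (control mean 10.95, deficient mean 11.45), and 5 of 8 markers lay at the floor. The part of these cell types in the members' values was not tested. Control 4 was the lowest control for 10 of the 23 genes, against 24.6% of all tested probesets.

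Deficient 3 was the lowest of its group for 12 of the 23 genes, among them Il6st, Il7r, Il17ra, Il18, Il18r1 and Il15ra, where it was lowest for 20.5% of all tested probesets. In the same array the summed levels of endothelial, macrophage, club and eosinophil markers were the lowest of the deficient group, at 10.07, 14.17, 13.83 and 5.91, and so were those of T cell, neutrophil and both alveolar lists. The B cell and mast cell sums, 9.25 and 12.15, were the second highest of that group. The mast cell sum mostly follows Hdc, as given above. The eosinophil list rests on Siglecf, which macrophages express too, as its only tested gene. The part of these cell types was not tested, and in bulk tumours fewer cells of a type and less RNA per cell cannot be told apart.

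Deficient 1 and deficient 5, which share a leading number, together held 1 end of their group's 7 values for 8 of the 23 genes (34.8%), close to the 31.5% of all tested probesets. They were the highest deficient arrays for Il15ra, Il18, Il27ra, Il6st and Il7r and the lowest for Il10rb, Il34 and Il4ra. For Il4ra the gap was widest, with the pair at 7.74 and 7.90 and the other deficient tumours at 9.003 to 9.53. Summed endothelial markers were 12.99 and 12.75 in this pair and 10.07 to 11.77 in the other deficient tumours. The pair was also highest of the group in the summed macrophage (14.99 and 14.82), club (15.28 and 14.97), ciliated (10.32 and 9.76), eosinophil (8.94 and 9.20), fibroblast (13.05 and 13.18) and alveolar type II (16.52 and 16.42) markers. The part of these lists in the members' values was not tested.

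**Figure D4:**
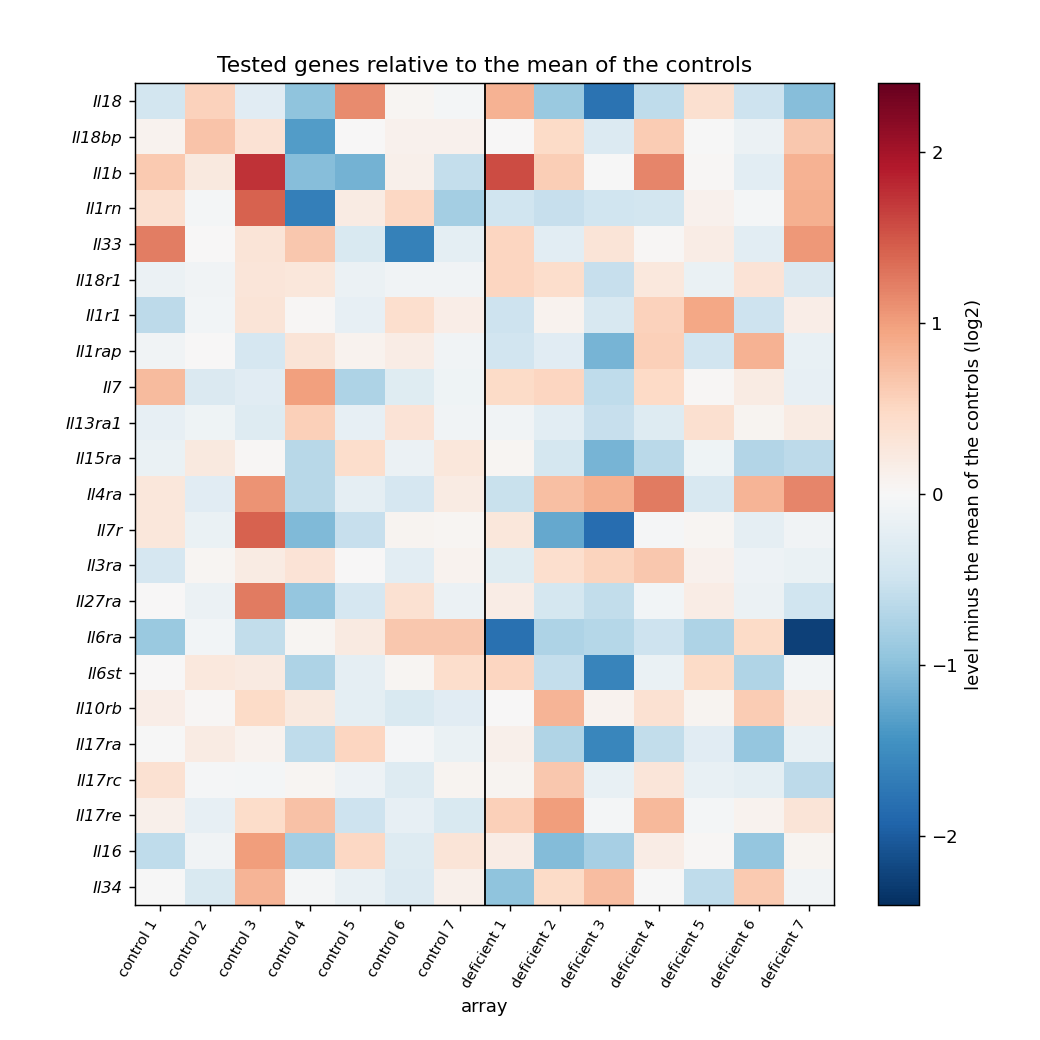
Level of the 23 tested genes (rows) on each array (columns) minus the mean of the 7 controls (log2, red above and blue below). Control 3 is red for Il1b, Il1rn, Il4ra, Il7r and Il27ra, deficient 3 is blue in many rows, and Il6ra is lowest in deficient 7 and deficient 1.

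Genes that act with the interleukins were read from the same fit, and 0 passed. Counts at an unadjusted p under 0.05 in these and the marker lists stand beside 14.7% of all tested probesets (6.57% lower, 8.09% higher), and 47.4% of all tested probesets read lower at any p. Of 15 tested genes of JAK-STAT signalling 6 read higher and 9 lower, with a median difference of -0.10 and 1 at an unadjusted p under 0.05. That gene was the phosphatase gene Ptpn6 (control mean 7.27 ± 0.45 and deficient mean 6.83 ± 0.21, each SD with n = 7, difference -0.44, SE 0.18), and Stat3, which IL-6 activates, differed by -0.28 (SE 0.13). The STAT target and inhibitor gene Socs2 differed by -0.03 (SE 0.13). Of 10 tested genes of IL-1 and IL-18 processing and signalling 4 read higher and 6 lower (median -0.07). Sigirr, an inhibitory receptor of this family, read 8.06 ± 0.19 and 7.74 ± 0.16 (-0.32, SE 0.11, adjusted p = 0.205) and was the only one at an unadjusted p under 0.05. Traf6 differed by 0.21 (SE 0.15) and Tollip by -0.15 (SE 0.16).

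Related cytokines and receptors under other symbols read lower in 13 of 16 tested genes (median -0.27), with 2 higher and 1 lower at an unadjusted p under 0.05. Csf2rb, the beta chain shared by the receptors of IL-3, IL-5 and GM-CSF, read 7.68 ± 0.22 and 6.80 ± 0.92 (-0.88, SE 0.33, limma adjusted p = 0.251). The gp130 ligand genes Ctf1 and Clcf1 differed by 0.40 (SE 0.15) and 0.85 (SE 0.38), with an adjusted p of 0.248 and 0.325, and Csf1r by -0.42 (SE 0.22). Clcf1 was picked after its value was seen, to complete the count.

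Genes known to respond to these cytokines gave no call either. Of 8 tested genes induced by IL-4 or IL-13, 6 read lower and 2 at an unadjusted p under 0.05 (median -0.35). Retnla, a secreted product of alternatively activated macrophages and airway epithelium, read 13.39 ± 0.25 and 12.52 ± 0.72 (-0.87, SE 0.27, adjusted p = 0.175). The mucin gene Muc5ac read 4.56 in controls and 2.86 in deficient tumours on average, where the second mean is below 4 and only a bound. Muc5ac was above 4 on only 7 arrays, the fewest the filter allows, so the size of its difference cannot be read. It is 1 of the 2 genes at that p and stays in the counts and the median. All 6 tested genes induced by IL-17 or IL-22 read higher (median 0.28), with 0 at an unadjusted p under 0.05. Among them the chemokine genes Cxcl1 and Cxcl2 differed by 1.32 (SE 0.74) and 0.70 (SE 0.65), and Lcn2 by 0.05 (SE 0.15). Genes of that list below the filter did not share 1 direction. Reg3g, above 4 on 4 arrays, reached 8.12 in controls and 2.52 in deficient tumours, and Cxcl5, above 4 on 2 arrays, reached 2.175 and 6.28.

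Of 8 tested genes induced by IL-6 through STAT3, 4 read higher and 4 lower, with a median near 0 (0.005). Cebpd, a transcription factor of the acute-phase response, read 9.50 ± 0.40 and 8.71 ± 0.49 (-0.79, SE 0.23, adjusted p = 0.158), and haptoglobin (Hp) differed by -0.66 (SE 0.14, adjusted p = 0.116). These 2 were the members of that list at an unadjusted p under 0.05.

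Markers of leukocytes and other cells stood beside these values as follows. Of 10 macrophage markers 8 read lower and 2 at an unadjusted p under 0.05, with summed levels of 14.43 to 14.92 in controls and 14.17 to 14.99 in deficient tumours. Adgre1 differed by -0.78 (SE 0.28), Siglecf, also expressed by eosinophils, by -1.27 (SE 0.48) and Lyz2 by 0.02 (SE 0.11). Of 8 T cell markers 3 were tested, all lower (Cd3d -0.65, SE 0.30, Cd3g -0.84, SE 0.40, and Cd3e -0.29, SE 0.20), and Cd4, Cd8a, Cd8b1, Cd5 and Cd28 lay at the floor. Summed T cell levels were 7.23 to 8.89 in controls and 7.15 to 7.75 in deficient tumours. Natural killer markers Klrk1, Ncr1 and Gzmb, B cell marker Pax5, neutrophil markers Ngp and Camp, eosinophil markers Epx and Ccr3 and 5 of 8 mast cell and basophil markers were at the floor. So were the dendritic cell markers Flt3, Cd209a, Xcr1 and Ccr7.

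Summed levels were 6.99 to 7.51 in controls and 6.67 to 8.65 in deficient tumours for natural killer markers, 8.05 to 8.87 and 8.18 to 9.33 for B cell markers, and 9.12 to 12.29 and 9.78 to 10.89 for neutrophil markers. They were 10.68 to 11.80 and 10.62 to 12.20 for mast cell and basophil markers, 12.59 to 13.29 and 12.81 to 13.28 for dendritic cell markers, and 8.14 to 9.48 and 5.91 to 9.20 for eosinophil markers. All of these ranges overlapped between the groups. For natural killer cells Prf1 differed by -0.20 (SE 0.24) and Nkg7 by 0.25 (SE 0.32), for B cells Cd79b by 0.32 (SE 0.15) and Ms4a1 by 0.78 (SE 0.65), and for neutrophils S100a8 by 0.32 (SE 0.52) and S100a9 by 0.24 (SE 0.46). Hdc of mast cells and basophils differed by 0.51 (SE 0.27) and Kit by 0.58 (SE 0.58), and the dendritic cell genes Itgax, Cd83 and H2-Ab1 by -0.54 (SE 0.32), -0.31 (SE 0.28) and -0.02 (SE 0.13).

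Airway epithelial markers read lower in deficient tumours, with a median difference of -2.37 over the club and secretory list, and no test compared lists. Of 8 club and secretory markers 7 read lower, 6 of them, Ltf, Muc5b and Bpifa1 included, at an unadjusted p under 0.05. Summed levels of that list were 14.57 to 15.94 in controls and 13.83 to 15.28 in deficient tumours. All 3 tested ciliated markers, Rsph1 and Lrrc23 included, read lower at that p. Rsph1 averaged 3.82 in deficient tumours, below 4, and summed levels of the list were 9.42 to 12.51 and 6.37 to 10.32. Ltf and Rsph1 were above 4 in all controls, but on only 9 arrays each, and passed the filter through that group. Lrrc23 (11 arrays), Muc5b (12 arrays) and Bpifa1 (13 arrays) were also above 4 in all controls but not in all deficient tumours. The differences of all these genes have only a bound, and the genes stay in the counts and the median above. The same limit holds for Sox18 and Rtkn2 below and for Cd3g above. Ltf averaged 10.01 in controls and 3.49 in deficient tumours. Scgb3a1 differed by -3.25 (SE 0.73), Scgb1a1 by 0.06 (SE 0.11), Tppp3 by -2.32 (SE 0.57) and Lrrc23 by -3.49 (SE 0.99). Lower readings were not limited to airway lists. All 8 endothelial markers (median -0.67) and 6 of 7 tested fibroblast markers (median -0.45) read lower, 1 and 3 of them at an unadjusted p under 0.05. Of the alveolar markers 4 of 6 type I and 2 of 7 type II read lower, 1 and 0 of them at that p. Endothelial markers spanned 11.34 to 12.41 and 10.07 to 12.99, fibroblast markers 12.69 to 13.64 and 12.29 to 13.18, alveolar type I markers 14.24 to 14.54 and 13.81 to 14.65, and alveolar type II markers 16.20 to 16.40 and 16.12 to 16.52. Sox18 and Cldn5 of endothelium differed by -1.05 (SE 0.33) and -1.16 (SE 0.67) and Cd93 by -0.07 (SE 0.32), and the collagen genes Col6a1 and Col6a2 by -1.07 (SE 0.36) and -1.17 (SE 0.44). Rtkn2, Hopx and Cldn18 of type I cells differed by -1.50 (SE 0.64), -0.70 (SE 0.35) and 0.07 (SE 0.12), and Abca3, Napsa and Sftpa1 of type II cells by 0.13 (SE 0.09), -0.09 (SE 0.14) and -0.04 (SE 0.10). The part of any of these lists in the lower values of Il6ra, Il17ra and Il15ra was not tested.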

How the data were processed

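RNA of 14 tumours (7 control, 7 deficient) was measured on Affymetrix arrays. The deposited log2 levels were made by the authors with GCRMA, which corrects background from probe sequence, normalises and summarises probesets, per the submitters' processing notes, and no version is named there. The number of arrays limits the precision. Genes were named from the platform annotation. With limma 3.58.1 in R 4.3.3 a model with a group term was fitted to 12701 probesets (above 4 on at least 7 arrays, Affymetrix controls left out), with moderated variances, two-sided tests and Benjamini-Hochberg adjustment over all of them. Single genes were also compared by two-sided exact permutation over 3432 splits, unadjusted. The fit was tested on simulated data. The members and lists were chosen with earlier results of these data known. Every tested member is described, with full values for those with an unadjusted p under 0.05, the 8 highest means and the highest of each role group, and from each list come the 2 smallest p-values and the highest mean. Of 208 entries in 20 lists, 20 had no probeset of that single symbol. Replicate numbers in the titles were not used to pair samples in the main fit. Deviations of same-numbered arrays from their own group's means correlated at -0.226 to 0.223 over tested probesets, which does not settle whether the numbers pair samples. Alternatives covered filters, scaling, floor, variance model, array weights, blocks, probeset choice and arrays left out.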

Additional observations from a re-analysis of the deposited data

Results flagged for a closer look

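In 4 of 54 groups of 7 arrays, taken over the tested genes and those above 4 on few arrays, 1 array lay far from the others of its group by Dixon's test. Chance flags about 1 in 20 groups. Il18bp read 4.21 in control 4 against 5.55 to 6.23 in the other controls, and its difference was -0.05 (SE 0.18) without that array. Il34 read 4.98 in control 3 against 3.80 to 4.27, with a difference of 0.16 (SE 0.26) without it. Il18rap, below the filter, read 4.95 in control 3 against 2.15 to 2.88. Il23a, also below the filter, read 2.41 in control 3 against 2.17 to 2.18, a gap within the background. Of the 4 values 3 were in control 3.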

How the results depend on the processing

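Over 27 alternatives, 576 of 609 single-gene differences kept their sign and 33 reversed, in 12 genes, by at most 0.240 in size. No member was called except the 5 with array weights, where 1900 probesets passed. With these weights 8 members (34.8%) had an unadjusted p under 0.05, beside 32.3% of all tested probesets. The members with that p numbered 0 taking the leading number as a random effect (4.72% of all tested probesets) and 0 with arrays averaged over it (2.92%). They numbered 5 without control 1 and 4 (21.7%, beside 19% of all tested probesets). Without deficient 3 and 6 they numbered 2, Il17re and Il6ra (8.7%, beside 13.7%). Both of these settings were chosen after seeing the data. With 1 array left out the members with that p numbered 2 to 6 (8.7% to 26.1%), beside 10.4% to 18.8% of all tested probesets. The 6 were without control 3 (26.1%, beside 13.3%). Over all probesets, calls numbered 0 without a filter, 9 with a variance trend, 0 with either use of the leading number, 32 without deficient 3 and 6, 119 without control 1 and 4, and 0 to 85 with 1 array left out, 85 without control 4. The replicate block gave 2 calls over all probesets, 0 among members, and changed no member's call. The median difference over members kept within its spread between arrays under every alternative. Il17rc read 0.00067 with quantile normalisation, 0.050 with median centring, 0.14 with array weights, 0.039 without deficient 3 and 6 and 0.054 without control 1 and 4. Il1rap read 0.064 with array weights. Il7 read -0.016 with that random effect and -0.089 with arrays averaged over the leading number, where Il33 read -0.12. Without deficient 3 and 6 Il34 read -0.24 and Il6st 0.037, and without control 1 and 4 Il18bp read -0.075 and Il1r1 -0.069. With 1 array left out, ranges that crossed 0 were -0.14 to 0.071 for Il17rc, -0.10 to 0.14 for Il1r1, -0.10 to 0.19 for Il34, -0.42 to 0.086 for Il1rn, -0.34 to 0.017 for Il27ra, -0.16 to 0.014 for Il13ra1, -0.048 to 0.29 for Il18bp, -0.0465 to 0.43 for Il33, -0.0069 to 0.17 for Il18r1, -0.32 to 0.0018 for Il1rap and -0.00019 to 0.29 for Il7. The cause was not tested. With mean probesets, 4 members no longer passed the filter.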
